A study of Mus musculus with 6 samples.

Results

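Heat shock chaperones of the cytosol and mitochondria were compared between heme-treated and control bone marrow-derived macrophages (BMDMs), primary mouse macrophages grown from marrow precursors. The set was a written list of 47 genes in 9 classes, taken by symbol with no threshold on measured values, out of 25700 gene identifiers in the count data. The list was written with earlier results of these data known. It comprised 2 heat shock factors, 9 HSP70 and HSP110 genes, 2 HSP90 genes, 2 small heat shock protein genes, 2 mitochondrial chaperonin genes, 11 DNAJ genes, 6 BAG genes, 6 HSP90 cochaperone genes and 7 subunit genes of the CCT complex. All 47 were found, and 45 passed the filter on low counts.

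Marrow came from C57BL/6J mice aged 8 to 10 weeks and was cultured with 100 ng/ml M-CSF, the macrophage growth factor. From day 3, the heme-treated cultures held 300 µM heme-albumin, and the control cultures held albumin without heme; RNA was collected on day 7. The study describes each of the 3 heme-treated and 3 control samples as macrophages from 1 mouse, with n = 3. The labels do not say whether a heme-treated and a control sample came from the same mouse. Cells were not sorted before RNA extraction, as far as the protocol says.

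Heat shock factor 1 (HSF1) is held inactive by chaperones in unstressed cells. When unfolded proteins occupy these chaperones, HSF1 forms trimers, binds heat shock elements in DNA and raises transcription of chaperone genes. HSP70 proteins bind unfolded stretches of clients in a cycle driven by ATP. DNAJ proteins start this cycle, while HSP110 and several BAG proteins release the nucleotide and end it. HSP90 and its cochaperones then mature kinases and steroid receptors, and the ring-shaped CCT complex folds actin and tubulin.

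The libraries held 27201038 to 32994595 counts. A floor of 3 counts corresponded to 0.091 to 0.11 CPM (a count scaled to the library total). Hmox1, the heme-degrading enzyme, checked the labels of the treatment: its level was 21789, 20480 and 20728 CPM in heme-treated BMDMs, against 651, 555 and 547 CPM in control BMDMs. The 6 macrophage markers summed to 36110 to 39370 CPM in heme-treated and 31360 to 37180 CPM in control libraries. Of these, 1 was called higher, 4 lower and 1 not called. Most of each sum was Lyz2, averaging 32552 CPM in heme-treated and 28007 CPM in control BMDMs, which was not called. Itgam was higher (log2 fold change 0.42, heme-treated over control). Fcgr1, Csf1r, Adgre1 and Cd68 were lower (-2.01, -0.61, -0.60 and -0.42). The 7 neutrophil markers summed to 89.4 to 132 CPM in heme-treated and 6.77 to 10.7 CPM in control libraries, 6 of 7 being called higher and Camp not tested, with Elane at 0 in all control libraries. Markers of dendritic cells, T and B cells and stromal cells summed to under 1 CPM in every library, and Cd3e and Dcn were at 0 throughout. The part of the neutrophil transcripts in the chaperone results was not tested. In bulk RNA, more cells of a type and more RNA per cell cannot be told apart.

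Most of the chaperone genes had higher counts in heme-treated BMDMs. Of the 45 tested genes, 27 rose (60.0%), 6 fell (13.3%) and 12 were not called. Among all 12433 tested genes, 31.7% rose and 30.8% fell, so that 62.5% were called in either direction, against 73.3% of the chaperone genes. A call means an adjusted p under 0.05 in edgeR's quasi-likelihood test, with Benjamini-Hochberg adjustment over all tested genes. The median log2 fold change, heme-treated over control, was 0.32 for the chaperone genes and 0.0041 for all tested genes. A called change of at least 1 on the log2 scale was found for 9 of the 45 genes, against 19.5% of all tested genes, and all 9 were higher. The 6 libraries fell into non-overlapping groups for 34 of the 45 genes (75.6%), against 68.8% of all tested genes.

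The number of calls in each direction depended on scaling, for the chaperone genes and for all tested genes. Levels and tests used TMM factors. Scaling by library sizes alone moved the median of all genes by -0.22 on the log2 scale, so that 20.8% of all tested genes rose and 46.8% fell. Under that scaling, 20 chaperone genes rose (44.4%) and 14 fell (31.1%), with a median of 0.10 against -0.22 for all tested genes. Under both scalings a larger share of the chaperone genes than of all tested genes rose, and a smaller share fell. Of the 33 called genes, 7 then missed the threshold: Hspe1, Dnaja2, Dnaja3, Bag1, Cct5, Cct7 and Tcp1.

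**Figure D1:**
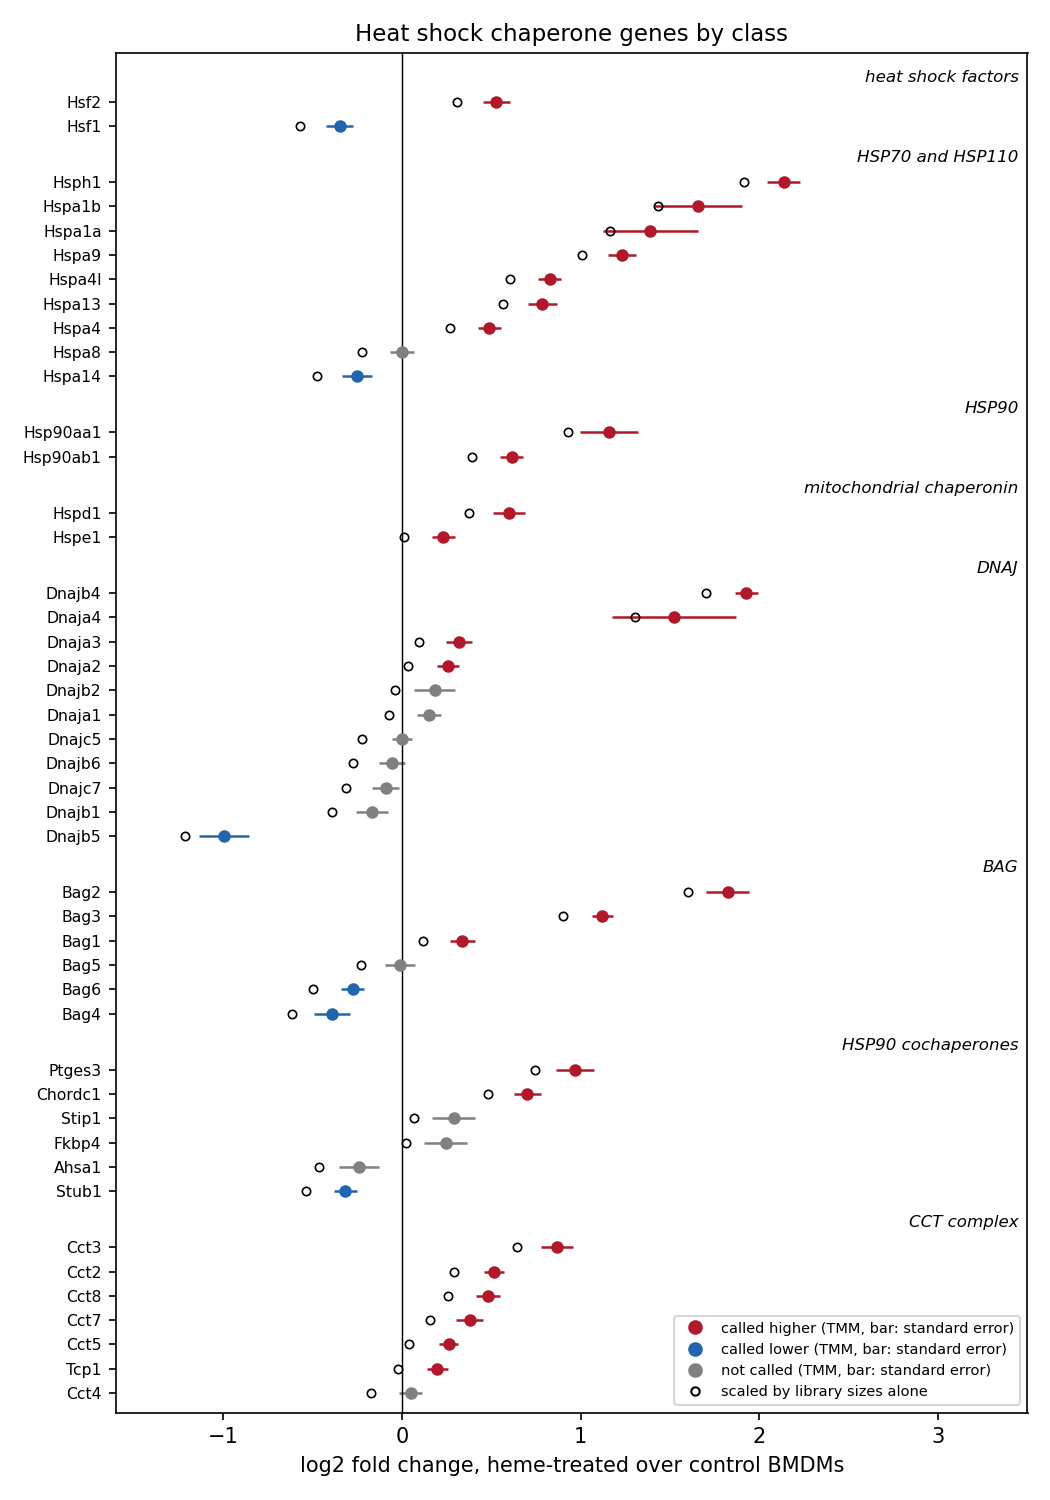
Log2 fold change, heme-treated over control BMDMs, of the 45 tested chaperone genes by class. Filled points show TMM scaling with standard errors as bars, coloured by call, and open circles show library sizes alone. The 27 red points reach 2.14 for Hsph1, and the lowest blue point is Dnajb5 at -0.996.

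Sequences around the transcription starts were read for heat shock elements, because HSF1 binds alternating copies of a short unit in DNA. RefSeq promoters (GRCm38.p6) were matched for 38 of the 47 genes. The element was searched as 3 alternating units, GAANNTTCNNGAA or its reverse complement TTCNNGAANNTTC. In the 250 bases before the start it was found in 3 of 38 chaperone genes (7.89%), namely Hspd1, Hspe1 and Dnajb6, and in 0.514% of 27025 genes (0.472% of the tested genes with a promoter). The Hspd1 match lies before its RefSeq start at 55087932 but after its RefSeq start at 55088243. Extending the window to 50 bases after the start added Hsph1 and Chordc1, for 5 of 38 (13.2%) against 0.662% of genes and 0.577% of tested genes. With 2 units, GAANNTTC or TTCNNGAA, which lie inside the longer element, 14 of 38 chaperone genes (36.8%), 14.5% of genes and 12.3% of tested genes had a match in the 250 bases. Among members with a promoter, 2 units were present in 9 of 23 that rose, 1 of 4 that fell and 4 of 11 others. The core of the antioxidant response element bound by NRF2, TGACNNNGC or GCNNNGTCA, was found in 7 of 38 (18.4%), 11.5% of genes and 14.1% of tested genes. These matches are letters in a window and were not measured as bound sites.

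The following stretches show the elements of the 5 genes with a 3-unit match and the 2-unit matches of the other genes called with a log2 change of at least 1, 5′ to 3′ on the strand of the gene, with the element in capitals.
Hspd1, chr1:55088053-55088082, minus strand: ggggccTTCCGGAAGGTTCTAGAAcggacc
Hspe1, chr1:55088053-55088082, plus strand: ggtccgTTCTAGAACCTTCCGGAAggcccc
Hsph1, chr5:149636280-149636308, minus strand: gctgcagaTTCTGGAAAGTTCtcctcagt
Chordc1, chr9:18292260-18292288, plus strand: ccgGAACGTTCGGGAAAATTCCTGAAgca
Dnajb6, chr5:29735844-29735872, plus strand: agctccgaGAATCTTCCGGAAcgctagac
Dnajb4, chr3:152193846-152193889, minus strand: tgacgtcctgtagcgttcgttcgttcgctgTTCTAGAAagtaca
Dnaja4, chr9:54699439-54699506, plus strand: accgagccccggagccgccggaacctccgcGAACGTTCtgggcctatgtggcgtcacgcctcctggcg
Dnaja4, chr9:54699496-54699525, plus strand: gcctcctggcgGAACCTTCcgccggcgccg
Bag3, chr7:128523614-128523632, plus strand: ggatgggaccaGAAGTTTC
Hspa1a, chr17:34972223-34972290, minus strand: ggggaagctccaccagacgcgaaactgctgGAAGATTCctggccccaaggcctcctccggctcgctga
Hspa1b, chr17:34959305-34959372, minus strand: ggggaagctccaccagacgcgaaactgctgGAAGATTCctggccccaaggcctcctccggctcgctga
Hspd1 and Hspe1 are read from opposite strands of the same stretch, so their element is 1 site counted for both genes. The stretches of Hsph1, Chordc1, Dnajb6, Bag3 and the chaperonin pair and the second one of Dnaja4 overlap annotated exons. The stretches of Hspa1a and Hspa1b are letter for letter the same.

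The 2 heat shock factors moved in opposite directions. Hsf1, the main activator of the heat shock response, had 16.0, 15.1 and 15.0 CPM in heme-treated BMDMs, against 19.5, 19.8 and 19.7 CPM in control BMDMs. All 3 heme-treated libraries lay below the controls (log2 fold change -0.35, SE 0.07, edgeR adjusted p = 0.00256). Hsf2, which can form mixed trimers with HSF1, had 22.6, 22.4 and 23.3 CPM in heme-treated BMDMs and 16.5, 15.8 and 15.0 CPM in control BMDMs. It was higher in every heme-treated library (0.53, SE 0.07, edgeR adjusted p = 0.000206). HSF1 is controlled largely at the protein level, which was not measured here.

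Of the 9 HSP70 and HSP110 genes, 7 rose, 1 fell and 1 was not called, with a median log2 fold change of 0.83. Of all tested genes, 31.7% rose and 30.8% fell. The largest change of the whole set was that of Hsph1, an HSP110 protein that resets HSP70 by nucleotide exchange and helps dissolve aggregates. Hsph1 (chr5:149614287-149636376) had 81.9, 67.9 and 76.1 CPM in heme-treated BMDMs, against 18.3, 17.2 and 15.8 CPM in control BMDMs. Its lowest heme-treated library was well above the highest control (log2 fold change 2.14, SE 0.09, edgeR adjusted p = 8.47e-08). The related Hspa4 and Hspa4l, which share the exchange function, rose by 0.49 and 0.83.

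Hspa1a and Hspa1b encode the stress-inducible cytosolic HSP70. Hspa1a (chr17:34969190-34972156) had 3.64, 2.88 and 2.20 CPM in heme-treated BMDMs, against 1.33, 0.746 and 1.25 CPM in control BMDMs. Hspa1b (chr17:34956436-34959238) had 3.00, 2.65 and 2.13 CPM in heme-treated BMDMs, against 0.857, 0.567 and 1.04 CPM in control BMDMs. Neither gene overlapped between groups, but both stayed at a low level, Hspa1a averaging 2.64 ± 0.61 TPM (a level corrected for gene length) in heme-treated and 1.24 ± 0.37 TPM in control BMDMs (SD, n = 3 each). The log2 fold changes were 1.39 (SE 0.27, edgeR adjusted p = 0.00137) for Hspa1a and 1.66 (SE 0.25, edgeR adjusted p = 0.000304) for Hspa1b. Their coding sequences shared 1919 of 1929 aligned bases (99.5%) and their promoters 247 of 250 bases, so reads cannot always be assigned to 1 of them. Summed, the pair rose by 1.51 (SE 0.23, edgeR adjusted p = 0.000361). Hspa1a also shares 19.0% of its exon bases with Gm20481 on the opposite strand.

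Hspa8, the constitutive cytosolic HSP70, was not called. It had 1117, 1148 and 1137 CPM in heme-treated BMDMs, against 1099, 1176 and 1131 CPM in control BMDMs. The groups overlapped (log2 fold change -0.0012, SE 0.07, edgeR adjusted p = 0.989), while library sizes alone gave -0.22 and a lower call (edgeR adjusted p = 0.012). The ratio of Hspa1a plus Hspa1b to Hspa8 is taken within a library and does not depend on scaling. On the log2 scale it was -7.39, -7.69 and -8.03 in heme-treated BMDMs and -8.97, -9.79 and -8.94 in control BMDMs. The groups did not overlap, and the difference was 1.53. The exact two-sided permutation test gave p = 0.1, the smallest that 3 against 3 libraries allow, and 0.1 after adjustment over the 3 ratios computed.

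Hspa9 encodes mortalin, the mitochondrial HSP70 that pulls imported proteins through the inner membrane and serves iron-sulfur cluster assembly. It had 465, 453 and 467 CPM in heme-treated BMDMs, against 220, 183 and 187 CPM in control BMDMs. The lowest heme-treated library was at 453 CPM and the highest control at 220 CPM (log2 fold change 1.23, SE 0.08, edgeR adjusted p = 1.15e-06). Hspa13, a membrane-associated member of the family, rose by 0.79. Hspa14, a partner of the ribosome, fell by 0.25 (edgeR adjusted p = 0.0246), a call that was lost without heme replicate 1, heme replicate 2 or control replicate 1 (adjusted p between 0.0599 and 0.078). It also shares 7.9% of its exon bases with Gm45902 on the same strand.

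**Figure D2:**
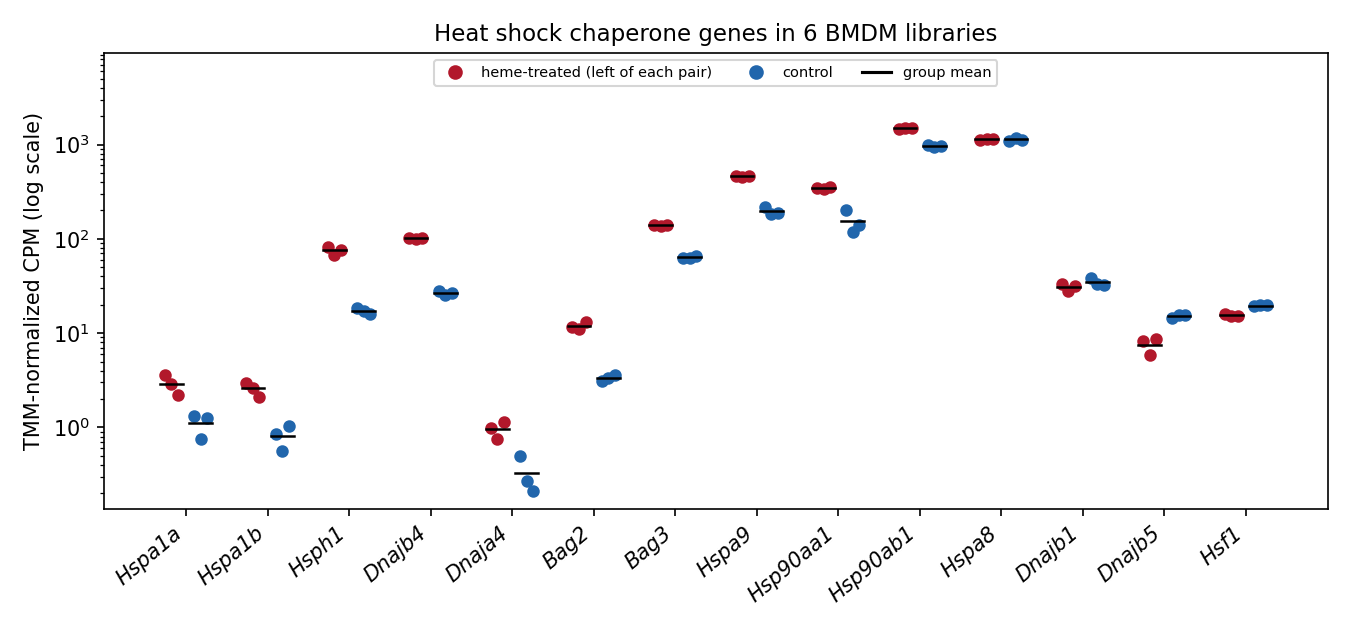
TMM-normalized CPM on a log axis for 14 chaperone genes, with heme-treated libraries left of control libraries, 1 point per library and a line at each group mean. Hsph1 reaches 81.9 CPM in heme-treated libraries and at most 18.3 CPM in controls, whereas the points of Hspa8 overlap near 1130 CPM.

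Both HSP90 genes rose. Hsp90aa1, the stress-inducible form, had 343, 341 and 352 CPM in heme-treated BMDMs, against 204, 120 and 142 CPM in control BMDMs. Control replicate 1 was the highest control, yet the groups did not overlap (log2 fold change 1.16, SE 0.16, edgeR adjusted p = 0.000191). Without that library the change was 1.40. Hsp90ab1, the constitutive form, had 1459, 1493 and 1502 CPM in heme-treated BMDMs and 994, 952 and 966 CPM in control BMDMs. It was higher in all 3 heme-treated libraries, by less on the log2 scale than Hsp90aa1 (0.61, SE 0.06, edgeR adjusted p = 3.05e-05).

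The log2 ratio of Hsp90aa1 to Hsp90ab1 averaged -2.10 ± 0.02 in heme-treated and -2.68 ± 0.36 in control BMDMs (SD, n = 3 each). The groups did not overlap and differed by 0.58, with an exact two-sided permutation p of 0.1, again the smallest possible (0.1 after adjustment over the 3 ratios). Per length, Hsp90ab1 was the most abundant chaperone transcript of the list in heme-treated BMDMs, at 1337 ± 45.5 TPM against 1069 ± 48.1 TPM in control BMDMs. Hspa8 was next, at 712 ± 23.9 TPM in heme-treated and 871 ± 12.3 TPM in control BMDMs. With the length of the principal transcript in place of all exons, Hspa8 was still below Hsp90ab1 in heme-treated BMDMs (921 ± 31.2 against 1145 ± 38.6 TPM), but above it in control BMDMs (1129 ± 15.9 against 918 ± 40.02 TPM). TPM are used here to set genes side by side within a group and are not TMM scaled.

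The small heat shock proteins Hspb1 and Hspb8, which hold unfolded proteins without ATP, were not tested because of low counts. Hspb1 had 1, 1 and 3 counts in heme-treated and 1, 3 and 0 counts in control libraries. Hspb8 had 0, 0 and 1 counts in heme-treated libraries and none in control libraries. Both were at or below the floor of 3 counts, so no fold change is given.

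The mitochondrial chaperonin consists of the HSP60 ring, encoded by Hspd1, and its HSP10 lid, encoded by Hspe1. The genes lie head to head on chromosome 1, with the Hspe1 start at position 55088148 and Hspd1 starts at 55088243 and 55087932 in RefSeq. Hspd1 had 159, 158 and 171 CPM in heme-treated BMDMs, against 123, 99.6 and 99.0 CPM in control BMDMs. Hspe1 had 38.7, 36.7 and 37.0 CPM in heme-treated BMDMs, against 32.9, 32.6 and 30.4 CPM in control BMDMs. Both were higher in every heme-treated library, Hspd1 by 0.60 (SE 0.09, edgeR adjusted p = 0.00034) and Hspe1 by 0.23 (SE 0.07, edgeR adjusted p = 0.0119). The Hspe1 call was lost without heme replicate 1 or control replicate 3 (adjusted p between 0.0512 and 0.053) and with library sizes alone (log2 fold change 0.0092, edgeR adjusted p = 0.911). The log2 ratio of Hspd1 to Hspe1 was 2.04, 2.10 and 2.21 in heme-treated and 1.91, 1.61 and 1.70 in control libraries. These did not overlap and differed by 0.37 (exact two-sided permutation p = 0.1, and 0.1 after adjustment over the 3 ratios). The genes share 112 exon bases on opposite strands.

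**Figure D3:**
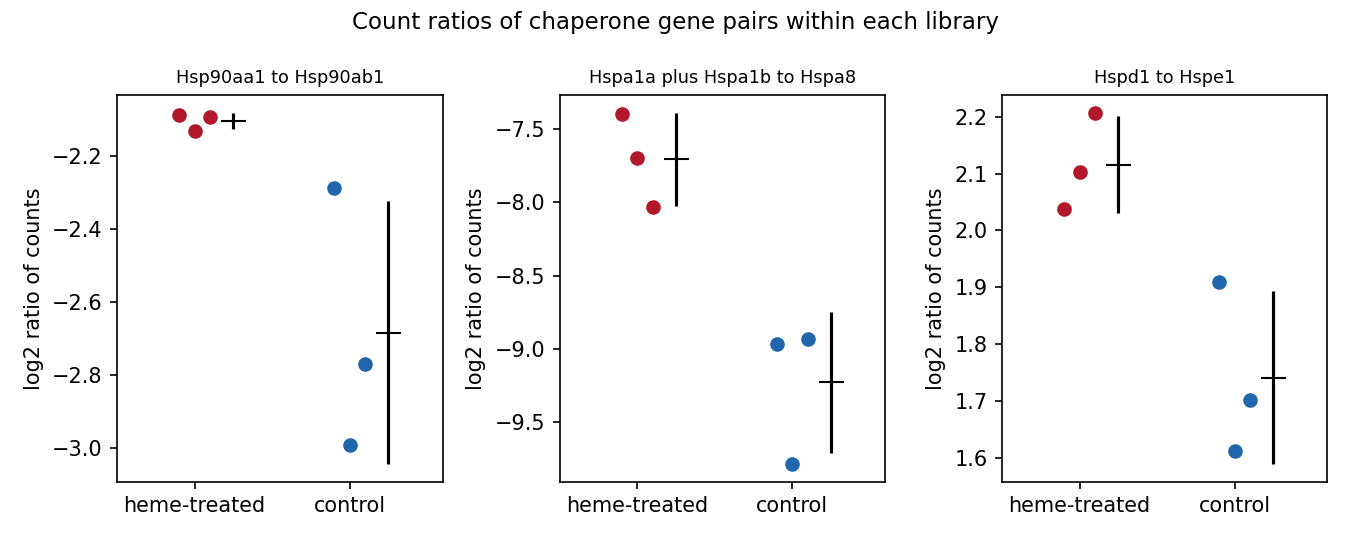
Log2 count ratio within each library for 3 gene pairs, with heme-treated libraries left of control libraries, points for libraries and bars for mean and SD. In each panel all heme-treated points lie above all control points, by 0.58, 1.53 and 0.37 on average.

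The 11 DNAJ genes were split, with 4 higher, 1 lower and 6 not called, and a median log2 fold change of 0.15. With library sizes alone 2 were higher and 5 lower. The shares of all tested genes were 31.7% higher and 30.8% lower, and 20.8% and 46.8% with library sizes alone. Dnajb4, a cytosolic partner of HSP70, changed most. Dnajb4 (chr3:152178511-152210302) had 102, 100.1 and 103 CPM in heme-treated BMDMs, against 27.9, 25.4 and 26.9 CPM in control BMDMs. The spread within each group was small beside the difference (log2 fold change 1.93, SE 0.06, edgeR adjusted p = 1.94e-08). Dnajb1, the classical stress-inducible HSP40, had 32.8, 27.9 and 31.9 CPM in heme-treated BMDMs, against 38.3, 33.1 and 32.8 CPM in control BMDMs. Its groups overlapped narrowly and it was not called (-0.17, SE 0.09, edgeR adjusted p = 0.128), but it was called lower with library sizes alone (-0.39, edgeR adjusted p = 0.00437). Dnajb1 was therefore called higher under neither scaling, unlike Hspa1a, Hsph1 and Dnajb4.

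Dnaja4 was scarce, with 0.977, 0.751 and 1.14 CPM in heme-treated BMDMs, against 0.497, 0.269 and 0.214 CPM in control BMDMs. The groups did not overlap (log2 fold change 1.52, SE 0.35, edgeR adjusted p = 0.0038). This gene shares 44.1% of its exon bases with Wdr61 on the opposite strand, which had 5465 counts over the 6 libraries against 113 for Dnaja4, so its value is uncertain. Dnajb5 had 8.32, 5.81 and 8.62 CPM in heme-treated BMDMs, against 14.5, 15.5 and 15.5 CPM in control BMDMs. It was lower in every heme-treated library and had the largest fall of the set (-0.996, SE 0.14, edgeR adjusted p = 0.000203). Dnaja2, a cytosolic general partner of HSP70, and Dnaja3, its mitochondrial counterpart, rose by 0.26 and 0.32, neither being called with library sizes alone. The other 5 DNAJ genes, Dnaja1, Dnajb2, Dnajb6, Dnajc5 and Dnajc7, were not called and had log2 fold changes between -0.09 and 0.18. Of these, Dnajb6, Dnajc5 and Dnajc7 were called lower with library sizes alone (-0.28, -0.22 and -0.31).

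The BAG family includes proteins that release nucleotide from HSP70 and link it to other machinery. Of the 6 BAG genes, 3 rose, 2 fell and 1 was not called, beside 31.7% higher and 30.8% lower of all tested genes. Bag2, an inhibitor of the ubiquitin ligase CHIP, had 11.6, 10.98 and 13.0 CPM in heme-treated BMDMs, against 3.12, 3.37 and 3.58 CPM in control BMDMs. Its groups were far apart (log2 fold change 1.82, SE 0.12, edgeR adjusted p = 1.25e-06). Bag3, which directs chaperone clients to selective autophagy and is a known HSF1 target, had 139, 136 and 141 CPM in heme-treated BMDMs, against 62.9, 62.9 and 65.6 CPM in control BMDMs. All heme-treated libraries were above all controls (1.12, SE 0.06, edgeR adjusted p = 2.58e-07). Bag1, which links HSP70 to the proteasome, rose by 0.34, but was not called with library sizes alone. Bag4, known as a silencer of TNF receptor signalling, fell by 0.39, and Bag6, which guards hydrophobic proteins in the cytosol, by 0.28. Bag5 was not called (-0.01), its sign turned when single libraries were left out, and it was called lower with library sizes alone (-0.23).

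The HSP90 cochaperones were mixed, with 2 of 6 higher, 1 lower and 3 not called, beside 31.7% higher and 30.8% lower of all tested genes. Ptges3, the p23 protein that stabilizes the closed HSP90 dimer, had 133, 152 and 132 CPM in heme-treated BMDMs, against 82.1, 60.7 and 71.0 CPM in control BMDMs. The groups did not overlap (log2 fold change 0.97, SE 0.11, edgeR adjusted p = 4.28e-05). Chordc1, another HSP90 partner, rose by 0.70 (SE 0.08, edgeR adjusted p = 3.91e-05). Stub1, which encodes the ubiquitin ligase CHIP, fell by 0.32 (SE 0.06, edgeR adjusted p = 0.00173), and shares 42.3% of its exon bases with Jmjd8 on the opposite strand.

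The remaining 3 cochaperone genes depended on single control libraries. Stip1, the adaptor that joins HSP70 to HSP90, had 71.3, 78.2 and 71.5 CPM in heme-treated BMDMs, against 73.2, 51.9 and 55.8 CPM in control BMDMs. Fkbp4, a steroid receptor cochaperone, had 60.8, 53.3 and 58.3 CPM in heme-treated BMDMs, against 58.0, 40.7 and 46.97 CPM in control BMDMs. In both, control replicate 1 lay among the heme-treated values. Stip1 was not called with all libraries (0.29, edgeR adjusted p = 0.0581) but was without control replicate 1 (0.45, edgeR adjusted p = 0.000334), and without control replicate 2 its value was 0.18 (edgeR adjusted p = 0.169). Fkbp4 likewise was not called (0.24, edgeR adjusted p = 0.1) but was without control replicate 1 (0.39, edgeR adjusted p = 0.00269), and without control replicate 2 its value was 0.12 (edgeR adjusted p = 0.304). Ahsa1, which speeds the ATPase of HSP90, had 113, 108 and 115 CPM in heme-treated BMDMs, against 159, 114 and 124 CPM in control BMDMs. It was not called (-0.24, edgeR adjusted p = 0.088), and was called lower without control replicate 2 (-0.35, edgeR adjusted p = 0.0114) and with library sizes alone (-0.46, edgeR adjusted p = 0.00648). Without control replicate 1 the value of Ahsa1 was -0.09 (edgeR adjusted p = 0.26). Control replicate 1 held the highest control value in 28 of 45 chaperone genes, against 37.7% of all tested genes. Heme replicate 3 held the highest heme-treated value in 26 of 45, against 29.5% of all tested genes.

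**Figure D4:**
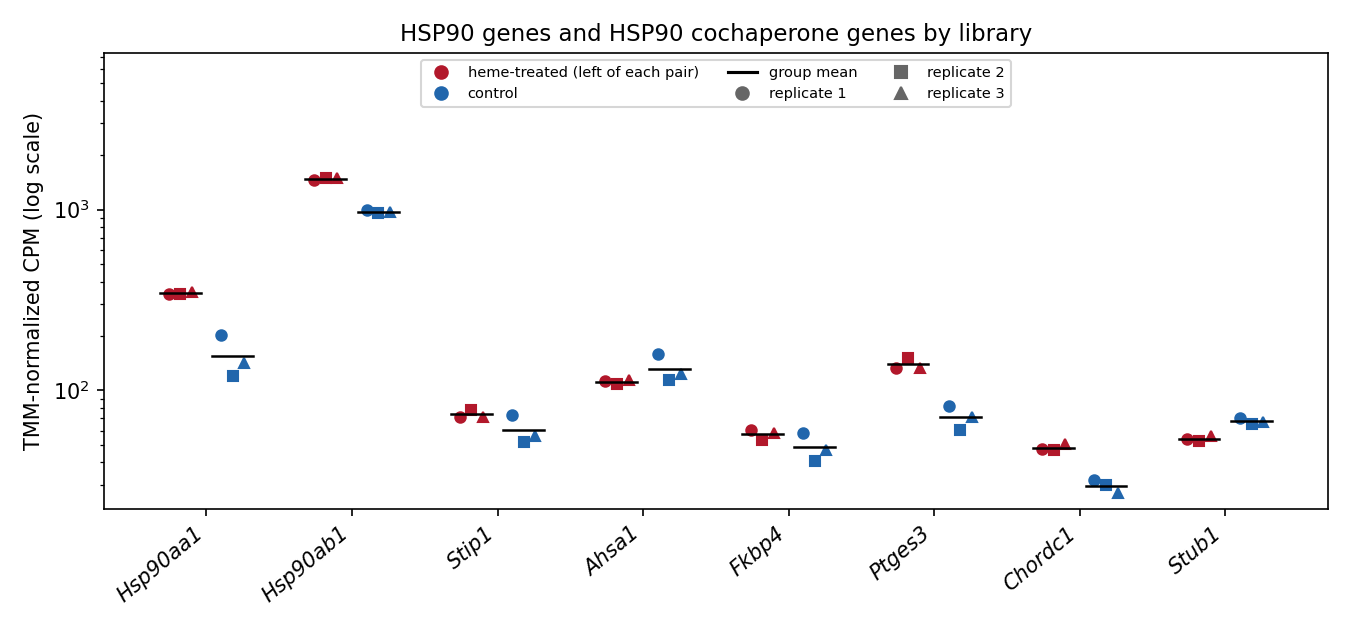
TMM-normalized CPM on a log axis for the HSP90 genes and HSP90 cochaperone genes, with heme-treated libraries left of control libraries, symbols for replicates and a line at each group mean. Control replicate 1 (circle) is the highest control in all 8 genes, at 204 CPM for Hsp90aa1 and 73.2 CPM for Stip1.

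Of the 7 CCT subunit genes measured, 6 rose and Cct4 was not called, with a median log2 fold change of 0.38. Beside this, 31.7% of all tested genes rose and 30.8% fell, or 20.8% and 46.8% with library sizes alone. The subunits stand side by side in a double ring, each in a fixed place. Cct3 rose most, with 141, 137 and 146 CPM in heme-treated BMDMs, against 88.7, 69.6 and 73.7 CPM in control BMDMs. Its groups did not overlap (0.87, SE 0.09, edgeR adjusted p = 2.79e-05). Cct2, Cct8, Cct7, Cct5 and Tcp1 rose by 0.51, 0.48, 0.38, 0.26 and 0.20. Cct4 had 154, 151 and 153 CPM in heme-treated BMDMs, against 141, 159 and 143 CPM in control BMDMs, with overlapping groups (0.05, SE 0.07, edgeR adjusted p = 0.536). With library sizes alone 3 subunits were higher (Cct2, Cct3 and Cct8), 1 was lower (Cct4, -0.17) and 3 were not called, Tcp1 turning to -0.03. The Tcp1 call was also lost without heme replicate 3 or control replicate 3 (adjusted p between 0.0633 and 0.0683).

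Per length of the principal transcript, the 7 subunits ranged from 119 TPM for Cct4 to 226 TPM for Cct2 in heme-treated BMDMs, and from 93.4 TPM for Cct3 to 212 TPM for Cct5 in control BMDMs. Over the length of all exons, the range was 59.8 TPM for Cct3 to 241 TPM for Cct2 in heme-treated BMDMs, and 40.2 TPM for Cct3 to 207 TPM for Cct2 in control BMDMs. The order of the subunits therefore rests on the length used. Cct6a was not analysed here.

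Another 8 lists of related genes, with 83 genes in the data, were described beside the chaperones. Of 71 tested genes, 29 rose, 18 fell and 24 were not called, with a median of 0.10. With library sizes alone 12 rose and 30 fell. Among all tested genes, 31.7% rose and 30.8% fell, or 20.8% and 46.8% with library sizes alone. The counts by list that follow stand beside the same shares. The mitochondrial chaperones and proteases held 9 genes that rose, 2 that fell and 3 that were not called, with a median of 0.31, and 4 rose and 4 fell with library sizes alone. Clpp, the matrix protease subunit, rose by 0.83, and Grpel1, the nucleotide exchange factor of mortalin, by 0.65. Dnajc30 fell by 0.74.

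Among other HSP90 cochaperones, 6 of 16 rose and 2 fell, against 1 and 6 with library sizes alone. Fkbp5 had 20.5, 21.9 and 20.4 CPM in heme-treated BMDMs, against 18.04, 6.80 and 11.2 CPM in control BMDMs. Control replicate 1 was again nearest to the heme-treated libraries (0.80, edgeR adjusted p = 0.0265). Ppid, a peptidyl-prolyl isomerase, rose by 0.69 and Pih1d1 fell by 0.68. Of 15 other DNAJ genes 7 rose and 6 fell, against 3 and 8 with library sizes alone. The largest changes were those of Dnajc6 (1.88, at under 0.6 CPM in every library), Dnajb13 (-0.96) and the histone chaperone gene Dnajc9 (-0.83). The other HSP70 and small HSP genes held no gene that rose and 3 of 6 that fell, Hspa12b by 0.87, Hspa2 by 0.44 and Hspb6 by 0.35.

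Prefoldin delivers unfolded actin and tubulin to CCT. Its 6 subunits were split, with Pfdn6 higher (0.85), Pfdn5 and Vbp1 lower (-0.49 and -0.23) and 3 not called. Among CCT helpers, Txndc9 rose by 0.33 and Pdcl3 fell by 0.29, and no helper was higher with library sizes alone. Hikeshi, which carries HSP70 into the nucleus, rose by 0.55 and was 1 of 3 tested genes in the list of other heat shock factors and their partners, the other two not being called. With library sizes alone 1 of these 3 rose and 2 fell. Of 8 tested genes known as HSF1 targets in the ubiquitin list, 4 rose and 2 fell, against 2 and 3 with library sizes alone. Hspbap1 (0.95), the polyubiquitin gene Ubb (0.68) and P4ha2 (0.59) were higher, and Ier5 (-0.49) and Mrpl18 (-0.45) were lower.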

How the data were processed

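The authors deposited 1 set of raw read counts per library, in whole numbers by Ensembl gene identifier and not normalized. Per the labels, libraries were made with a stranded TruSeq kit from RNA of an integrity number above 9; the submitters' processing notes name STAR 2.7.0, featureCounts and GRCm38.p5. With the annotation release, strand setting and read filters not given in the sources used here, reads shared by overlapping or near-identical genes cannot be placed. Symbols, positions and exon lengths came from GENCODE M21 (GRCm38.p6), and promoters from RefSeq (GRCm38.p6); 113 of 25700 identifiers had no symbol (0.0618% to 0.078% of counts).

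In R 4.3.3, edgeR 4.0.16 (filterByExpr, minimum count 10, TMM, glmQLFit and glmQLFTest, group as the only term) was fitted to all 12433 genes. Ratios had 0.5 added to each count and were compared by exact permutation with scipy 1.17.1. Alternatives were other scalings, filters and libraries, DESeq2 1.42.0 and limma-voom 3.58.1. The procedure was tested on simulated counts. In these, few genes were changed, in equal numbers up and down. The simulation therefore did not examine how scaling acts when most genes are called. The members and lists were chosen with earlier results of these data known. Values in every library are given for 12 genes listed by name and for called genes with a log2 change of at least 1; Hsf2, Hspb8, Dnajb5, Ptges3, Stip1, Fkbp4, Ahsa1, Cct3, Cct4 and Fkbp5 were added after their values were seen. Of the other lists, up to 3 called genes with the largest change are named, and Ier5 and Mrpl18 were added after their values were seen. The result of 1 further marker list is not reported here.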

Additional observations from a re-analysis of the deposited data

How the results depend on the processing

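Of the 33 called chaperone genes, 25 kept their call and direction under every alternative in which they were tested, except the test against a log2 fold change of 0.5. Dnaja4 is among the 25 but was not tested with at least 50 counts in 3 libraries. The other 8 were Hspa14, Hspe1, Tcp1, Dnaja2, Dnaja3, Bag1, Cct5 and Cct7. Against a change of 0.5, 3333 of all tested genes were called (1816 higher, 1517 lower), with 14 chaperone genes higher and 1 lower. With library sizes alone, 2580 of all genes were higher and 5814 lower, with 14 chaperone genes lower, and the sign turned for Dnaja1 (-0.0723), Dnajb2 (-0.0413), Cct4 (-0.173) and Tcp1 (-0.0251). Requiring at least 50 counts in 3 libraries turned Hspa8 to 0.0069 and Dnajc5 to 0.0066. Leaving out single libraries gave -0.03 to 0.0154 for Hspa8, -0.0258 to 0.016 for Dnajc5 and -0.0627 to 0.0491 for Bag5. Median-of-ratios factors, upper quartile scaling and DESeq2 changed no chaperone call. Stip1 was called with limma-voom (0.30, adjusted p = 0.0473) and with no filter on low counts (0.28, edgeR adjusted p = 0.0439). The numbers were not taken as pairs, because the labels do not say that same-numbered libraries share a mouse. Deviations from the group means correlated at -0.132, -0.175 and -0.094 for same-numbered libraries, and at -0.028 to 0.142 for the others. Deviations of 3 libraries from their own mean must balance, so these values cannot show whether libraries share a mouse. With the replicate block, Fkbp4 was called (0.26, edgeR adjusted p = 0.0361), Tcp1 was not (0.20, edgeR adjusted p = 0.0515), and no other chaperone call changed. The principal transcript length and the 2-unit element were chosen after seeing the data. The calls of Stip1, Fkbp4 and Ahsa1 changed with single control libraries.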
